A study of Homo sapiens with 9 samples.

Results

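TGF-beta signalling reaches the nucleus through the SMAD proteins, and 9 of its genes were followed through the binding maps of the SWI/SNF chromatin remodeling complex in HepG2 cells. They were the ligand TGFB1, the type II receptor TGFBR2, the receptor-regulated SMAD2 and SMAD3, the common partner SMAD4, the inhibitory SMAD6 and SMAD7, and the corepressors SKI and SKIL. A peak belonged to a gene when the nearest-gene column deposited with the list named it. In all, 70 of 34575 ARID peaks were assigned to the 9 genes, among 12428 gene names that received a peak.

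HepG2 is an established line from a human liver cancer, and it was grown untreated, with no genetic change stated in the labels. Chromatin was immunoprecipitated with antibodies against ARID1A, ARID1B, ARID2 or SNF5 and sequenced, with 2 libraries for each antibody and 1 input library. ARID1A and ARID1B are alternative subunits of the BAF form of SWI/SNF, ARID2 belongs to the PBAF form, and SNF5 (BAF47, the product of SMARCB1) is a core subunit of both forms. Both replicates of an antibody were merged before peaks were called, so each subunit had 1 list (ARID1A with 12852 peaks, ARID1B with 8728, ARID2 with 12995, SNF5 with 20718), and the counts below carry no replicate error and no test. The lists hold no read counts, so depth is unknown, and a gene without a peak in a list was not shown to be unbound. All groups came from 1 cell line with no TGF-beta added. The files hold no expression values. The hepatocyte marker genes ALB, APOA1, APOB, SERPINA1, AFP, HNF4A, FOXA1 and FOXA2 carried an ARID peak and TTR did not, and of 5 blood and immune markers 0 did.

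TGF-beta ligands assemble type II and type I receptor kinases at the cell surface, which phosphorylate SMAD2 and SMAD3. These join SMAD4, enter the nucleus and regulate transcription at SMAD-binding elements together with other transcription factors. SMAD7 and SMAD6 are induced by the pathway or by the related BMP pathway and restrain it, while SKI and SKIL bind SMAD complexes and repress their targets. In liver cells the pathway is known for growth arrest and for its part in fibrosis and tumour progression.

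The DNA under the peaks differed widely in composition, also within a gene. In stretches at TGFBR2 covered by peaks of 2 ARIDs, the GC content was 33.5%, 35.9% and 80.8%. The stretches covered by peaks of more than 1 ARID are printed here because they are where the lists overlapped. All are on the forward strand of GRCh37 (hg19). Capitals mark matches on either strand to 4 letter strings, GTCTAGAC (the palindromic SMAD-binding element), TGANTCA (AP-1), CCGCCC (GC box) and TGTTTAC (a FOXA core). There were 18 such stretches at 7 of the genes, and those shown lie outside annotated exons of the 9 genes. The stretches named SMAD7 intron and SKIL upstream lay under peaks of the deposited promoter class.
SMAD3 promoter, ARID1A, ARID1B and ARID2, chr15:67356608-67356799: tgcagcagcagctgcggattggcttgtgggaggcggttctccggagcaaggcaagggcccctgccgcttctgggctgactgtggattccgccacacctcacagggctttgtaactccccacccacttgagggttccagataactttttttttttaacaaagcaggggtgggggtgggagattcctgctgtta
TGFBR2 upstream, ARID1A and ARID2, chr3:30638931-30639033: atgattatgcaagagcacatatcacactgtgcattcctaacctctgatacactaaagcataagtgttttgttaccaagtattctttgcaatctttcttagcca
TGFBR2 upstream, ARID1A and ARID1B, chr3:30639215-30639405: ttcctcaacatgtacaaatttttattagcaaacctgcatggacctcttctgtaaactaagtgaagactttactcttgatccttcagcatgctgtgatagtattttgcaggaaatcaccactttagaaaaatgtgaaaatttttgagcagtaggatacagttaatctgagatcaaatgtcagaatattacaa
SMAD7 intron, ARID1B and ARID2, chr18:46475705-46475825: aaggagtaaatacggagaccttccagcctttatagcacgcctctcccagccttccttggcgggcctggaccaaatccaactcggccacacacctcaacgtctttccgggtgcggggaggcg
SMAD7 upstream, ARID1A and ARID2, chr18:46478549-46478719: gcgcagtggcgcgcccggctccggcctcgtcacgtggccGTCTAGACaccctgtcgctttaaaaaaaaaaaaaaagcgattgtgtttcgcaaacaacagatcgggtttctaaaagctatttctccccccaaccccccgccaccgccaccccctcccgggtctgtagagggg
SKI intron, ARID1A and ARID2, chr1:2166077-2166300: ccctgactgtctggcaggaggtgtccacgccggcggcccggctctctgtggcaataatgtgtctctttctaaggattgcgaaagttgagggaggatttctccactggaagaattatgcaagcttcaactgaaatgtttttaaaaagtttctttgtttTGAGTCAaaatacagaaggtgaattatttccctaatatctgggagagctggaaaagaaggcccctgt
SKIL upstream, ARID1A and ARID2, chr3:170074700-170074782: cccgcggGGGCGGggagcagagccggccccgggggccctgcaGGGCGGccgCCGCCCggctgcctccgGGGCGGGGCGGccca

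All 9 genes were assigned an ARID1A peak and all 9 an ARID2 peak, whereas 5 were assigned an ARID1B peak. Among 20136 protein-coding genes, 33.3% had an ARID1A peak, 29.7% an ARID2 peak and 17.1% an ARID1B peak. The genes without ARID1B were TGFB1, SMAD2, SMAD4 and SKI. TGFBR2, SMAD3, SMAD6, SMAD7 and SKIL had peaks of all 3 ARIDs, as did 10.1% of protein-coding genes. The median over the 9 genes was 8 ARID peaks per gene, against 0 over all protein-coding genes and 2 over the 8806 (43.7%) with any peak. The 9 genes were also long, with a median length of 80614 bp against 27219 bp for protein-coding genes. They were chosen as active in liver cancer cells and with earlier results of these data known, whereas the protein-coding genes include silent ones. The paper reports very little ARID binding at non-expressed transcripts. The parts of gene length and of activity in these shares and in the number of assigned peaks were not tested.

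**Figure D1:**
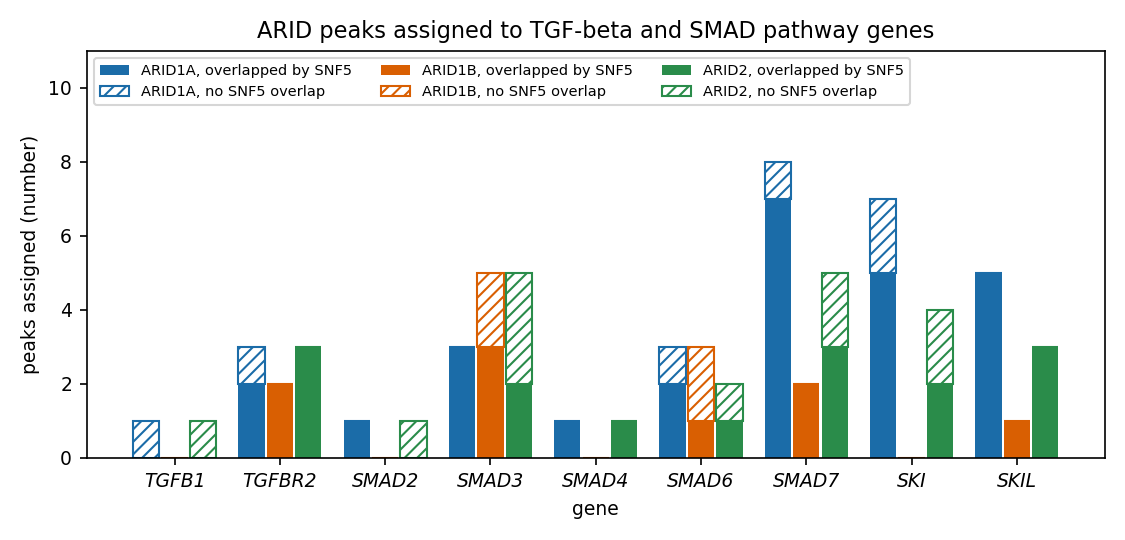
Number of ARID1A, ARID1B and ARID2 peaks (y axis) assigned to each of the 9 genes (x axis); filled bars are peaks overlapped by SNF5 by at least 1 bp and hatched bars are peaks that are not. SMAD7 had 15 peaks, SMAD3 13 and SKI 11, while TGFB1, SMAD2 and SMAD4 had 2 each.

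TGFB1, SMAD2 and SMAD4 had 2 ARID peaks each and the other genes 8 to 15. SMAD7 had 8 ARID1A peaks, a number reached by 30 of 20136 protein-coding genes (0.149%), and SKI had 7, reached by 48 genes (0.238%). For ARID1B the highest count was 5, at SMAD3, reached by 98 genes (0.487%). SMAD3 and SMAD7 each had 5 ARID2 peaks, reached by 194 genes (0.963%). The 3 lists therefore did not rank the genes alike: ARID1A peaks were most numerous at the inhibitor SMAD7 and the corepressor SKI, and ARID1B peaks at the signal transducer SMAD3. These counts depend on how finely neighbouring peaks were split. With peaks up to 1000 bp apart joined, SMAD7 and SKI each had 4 ARID1A regions, reached by 88 genes (0.437%), and SMAD3 had 4 ARID1B and 3 ARID2 regions. SKIL went from 5 ARID1A peaks to 1 region, with 1 region in each other list, and SMAD6 from 3 ARID1A peaks to 1 region. TGFB1, SMAD2 and SMAD4 were each assigned 1 ARID1A and 1 ARID2 peak, although TGFB1 had 4 of each within 5000 bp of its gene body.

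**Figure D2:**
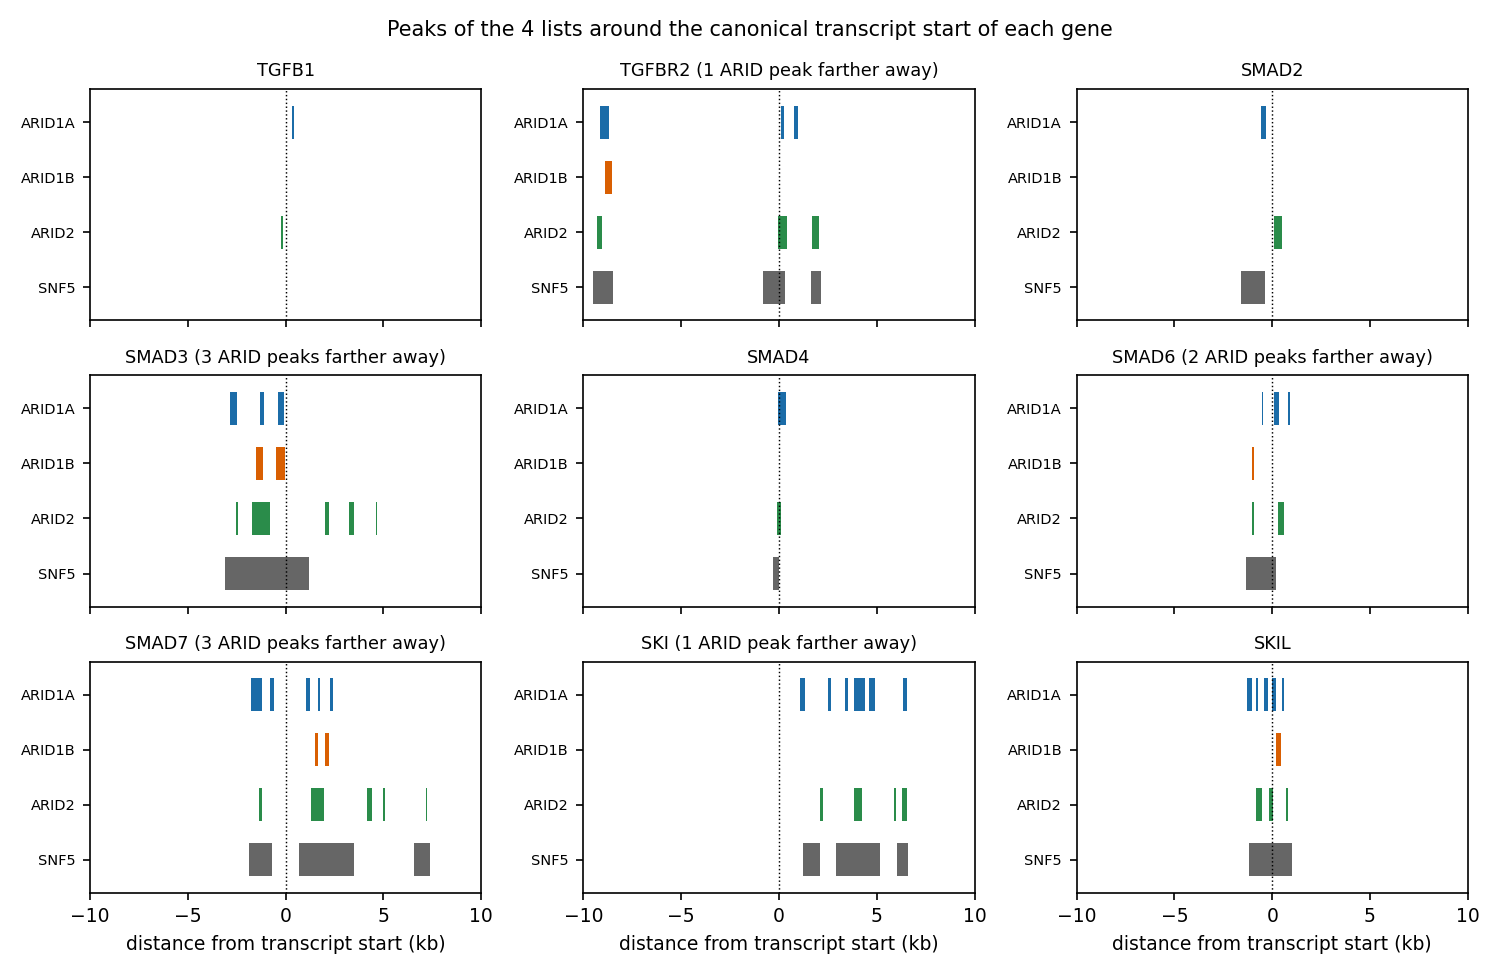
Positions of the peaks of the 4 lists within 10 kb of the canonical transcript start of each gene, with the direction of transcription to the right; blocks are peaks drawn to scale, except that the narrowest are widened to stay visible, and the SNF5 row holds only peaks that overlap an ARID peak of the gene. At SKIL all 9 ARID peaks, and at SMAD3 the 7 upstream of the start, overlapped 1 SNF5 peak, and at SKI all of them lay downstream of the start.

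TGFB1 encodes the ligand. Its ARID1A peak (chr19:41859396-41859488) covered 93 bp at a distance of 372 bp from the nearest start, in an exon, and its ARID2 peak (chr19:41859976-41860038) covered 63 bp at 188 bp. These peaks did not overlap each other, and neither was overlapped by SNF5. Inside the annotated span of TGFB1 another 3 ARID1A and 3 ARID2 peaks were assigned to the neighbouring gene CCDC97, and of these 5 were overlapped by SNF5. Counted by position within 5000 bp of its gene body, TGFB1 thus had 4 ARID1A and 4 ARID2 peaks.

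TGFBR2, the receptor that binds the ligand, had 8 peaks and the only 3-ARID region outside the deposited promoter class. Upstream of the gene, an ARID1A peak of 475 bp (chr3:30638931-30639405) was overlapped by an ARID1B peak of 316 bp and an ARID2 peak of 265 bp, at deposited distances of 8824, 8619 and 9091 bp. The ARID1B and ARID2 peaks did not touch: ARID1A shared 191 bp with the former and 103 bp with the latter. Both shared stretches, printed above, were AT-rich, with a GC content of 33.5% and 35.9%, and held none of the 4 letter strings. A single SNF5 peak of 1014 bp covered the region. At the transcript start, ARID1A (156 bp) and ARID2 (496 bp) overlapped under another SNF5 peak, and no ARID1B peak was listed there. The other ARID1B peak lay 22407 bp away.

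SMAD2 and SMAD3 carry the signal from the receptor, but their maps differed. SMAD2 had 1 ARID1A peak of 274 bp (chr18:45457336-45457609) and 1 ARID2 peak of 434 bp (chr18:45456528-45456961), which did not overlap, each in the promoter class at 37 and 9 bp from different annotated starts. SNF5 overlapped the ARID1A peak and not the ARID2 peak. SMAD3 had 13 peaks, 7 of them in the promoter class. A 932 bp ARID2 peak (chr15:67356227-67357158) contained an ARID1B peak of 358 bp and an ARID1A peak of 228 bp, and the 192 bp printed above were the only stretch at any of the 9 genes that all 3 ARIDs covered. That stretch lies upstream of the canonical start of SMAD3, inside the span of its longest annotation, and overlaps an exon of the neighbouring gene ENSG00000259347. ARID1A and ARID1B shared a further 343 bp from -409 to -67 bp of the canonical start, with a GC content of 78.4% and 5 GC boxes, where no ARID2 peak was listed.

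In the introns of SMAD3 the peaks of the lists did not overlap. ARID2 peaks of 211, 270 and 52 bp followed the promoter at 1887, 3113 and 4405 bp from the nearest start, and ARID1B peaks of 52, 145 and 108 bp lay deeper in the gene, up to 70018 bp past the canonical start. None of these 6 peaks was overlapped by another ARID, and SNF5 overlapped 1 of them, the last of the ARID1B peaks. Peaks without such overlap were common: another ARID overlapped 40.1% of the ARID1B list and 46.9% of the ARID2 list. Of the single peaks in these lists, 44.5% and 48.5% met SNF5. ARID1A had no intronic peak at SMAD3.

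SMAD4, the partner shared with the BMP branch, had an ARID1A peak of 431 bp (chr18:48556537-48556967) and an ARID2 peak of 221 bp that overlapped it by 169 bp at the canonical start. A 350 bp SNF5 peak with a score of 23 overlapped both.

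The inhibitory SMADs bind receptors or SMAD4 and block the signal, and SMAD6 had 8 peaks and SMAD7 15. At SMAD6, ARID1B and ARID2 shared 56 bp in the promoter class (chr15:66993556-66993611) in the only merged region at the 9 genes that held this pair without ARID1A, and ARID1A and ARID2 shared 59 bp within the transcribed region. The other ARID1B peaks of SMAD6, of 58 and 52 bp, lay 58515 and 91643 bp from the nearest start and were overlapped by neither an ARID nor SNF5. Of the SMAD7 peaks, the most at any of the 9 genes, 12 were overlapped by SNF5. A 666 bp ARID2 peak (chr18:46475374-46476039) was overlapped by an ARID1A peak of 57 bp and by an ARID1B peak of 121 bp that did not touch each other. Upstream of the gene, an ARID1A peak of 596 bp (chr18:46478528-46479123) contained the whole 171 bp ARID2 peak printed above. ARID1A alone covered a region inside the gene, with peaks of 211 and 85 bp centred 21039 and 20481 bp past the canonical start but in the deposited promoter class, at 254 and 299 bp from the nearest start, under 1 SNF5 peak of 1401 bp.

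The ARID2 peak upstream of SMAD7 held the SMAD palindrome GTCTAGAC at chr18:46478588-46478595, at -1253 bp from the canonical start. In windows of 300 bp centred on each peak, the palindrome was found in 1 of 25 ARID2 windows at the 9 genes and in 10 of 12995 ARID2 windows in all (0.077%). It was found in 0 of 32 ARID1A windows at the genes, against 12 of 12852 in all (0.0934%), and in 0 of 13 ARID1B windows, against 13 of 8727 (0.149%). The ARID1A peak that contains the palindrome is wider and centred elsewhere, so its window does not reach it. The GC box was in 14 of 32 ARID1A, 5 of 13 ARID1B and 9 of 25 ARID2 windows at the genes. These were 43.8%, 38.5% and 36.0%, against 53.1%, 27.8% and 39.5% of each list. In the same order, the AP-1 string was in 1, 1 and 2 windows (3.1%, 7.7% and 8.0%, against 6.5%, 9.7% and 6.9%). The FOXA core was in 1, 2 and 1 (3.1%, 15.4% and 4.0%, against 3.5%, 6.1% and 4.2%). A match describes the letters and was not tested as a bound site.

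SKI and SKIL encode related corepressors, with 11 and 9 peaks. All 11 SKI peaks came from ARID1A (7) and ARID2 (4), and 1 ARID1A peak lay beyond the 3′ end of the gene, at 10851 bp from the nearest start. ARID1A and ARID2 shared a 393 bp stretch near an internal start (chr1:2163614-2164006) and the 224 bp intronic stretch printed above, which holds an AP-1 string. At SKIL all 9 peaks, 5 of ARID1A, 1 of ARID1B and 3 of ARID2, were overlapped by a single SNF5 peak of 2224 bp (chr3:170074308-170076531) across the transcript start. ARID1A and ARID2 shared 83 bp there with a GC content of 90.4% and 5 GC boxes, while the ARID1B peak of 228 bp overlapped neither.

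Over the 9 genes the promoter shares differed from those of the whole lists by less than their wide intervals. The promoter class held 25 of 32 ARID1A peaks (78.1%, 95% Wilson interval 61.2 to 89.0%) against 72.6% of the list, 6 of 13 ARID1B peaks (46.2%, 23.2 to 70.9%) against 37.9%, and 14 of 25 ARID2 peaks (56.0%, 37.1 to 73.3%) against 67.0%. Each interval included the share of the list. The intervals cover counting error only, and peaks at the same gene are not independent, so inclusion does not show that placement was alike.

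The same held for overlap between subunits. Another ARID overlapped 13 of 32 ARID1A peaks (40.6%, 25.5 to 57.7%) against 47.6% of the list, 5 of 13 ARID1B peaks (38.5%, 17.7 to 64.5%) against 40.1%, and 13 of 25 ARID2 peaks (52.0%, 33.5 to 70.0%) against 46.9%. ARID2 overlapped 12 of 32 ARID1A peaks (37.5%), against 40.4% of the ARID1A list, and ARID1B overlapped 3 (9.38%, 3.24 to 24.2%), against 20.9%. After merging, the 70 peaks formed 53 regions, of which 14 held 2 or 3 ARIDs (26.4%, against 25.3% of 25247 regions) and 3 held all 3 (5.66%, against 7.55%). The regions with all 3 were at SMAD3, SMAD7 and TGFBR2.

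**Figure D3:**
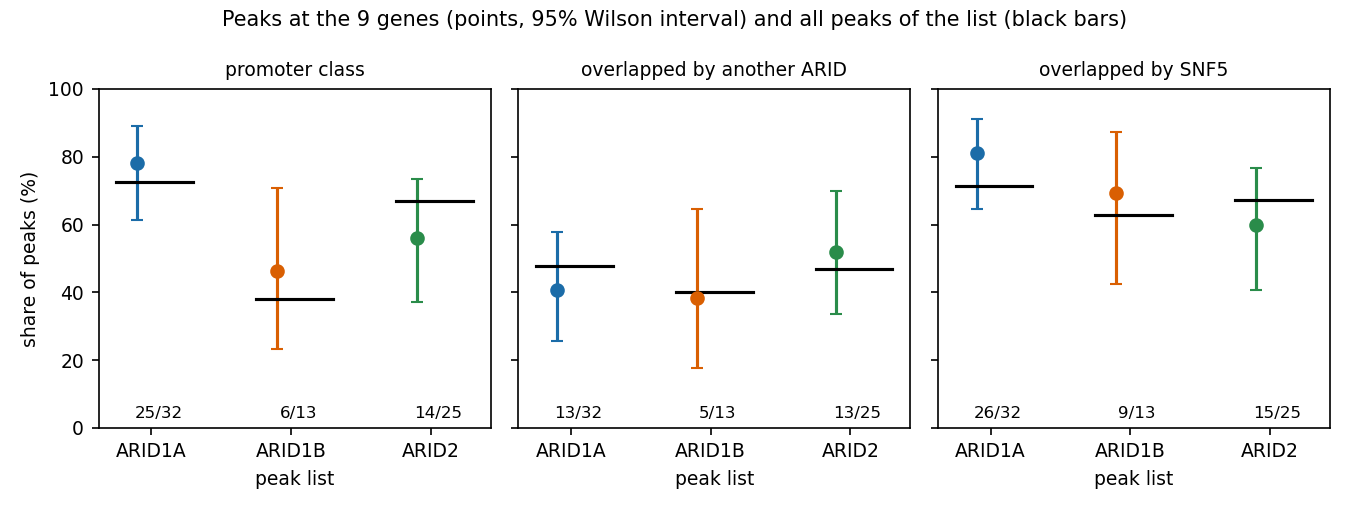
Share of peaks (y axis, %) in the promoter class, overlapped by another ARID and overlapped by SNF5 for each list (x axis); points with 95% Wilson intervals are peaks at the 9 genes, with their counts below, and black bars are all peaks of the list. Every interval includes the black bar of its list.

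SNF5 overlapped 26 of 32 ARID1A peaks (81.2%, 64.7 to 91.1%) against 71.3% of the list, 9 of 13 ARID1B peaks (69.2%, 42.4 to 87.3%) against 62.9%, and 15 of 25 ARID2 peaks (60.0%, 40.7 to 76.6%) against 67.2%. Of the peaks overlapped by another ARID, 30 of 31 met SNF5 (96.8%), against 89.1% over the 3 lists. Of the single peaks, 13 of 19 ARID1A peaks met SNF5 (68.4%), against 55.1% of the list, 4 of 8 ARID1B peaks, against 44.5%, and 3 of 12 ARID2 peaks, against 48.5%. The interval for the single ARID2 peaks (8.89 to 53.2%) included the share of the list.

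The 17 SNF5 peaks that overlapped ARID peaks of the 9 genes had a median width of 1118 bp, against 535 bp over the SNF5 list, and a median score of 21 against 19. The widest was at SMAD3, 4280 bp with a score of 28 (chr15:67354840-67359119), wider than 99.6% of the list, and it covered 7 ARID peaks. SMAD7 followed with 2858 bp, SKIL with 2224 bp and SKI with 2216 bp. A wide peak meets more ARID peaks by its width alone, so these widths describe where ARID peaks fell. Within 5000 bp of the gene bodies there were 36 SNF5 peaks, and 18 of them were overlapped by no ARID peak, as were 49.1% of all SNF5 peaks. TGFBR2 had 6 of the 18 and SMAD3 had 5.

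**Figure D4:**
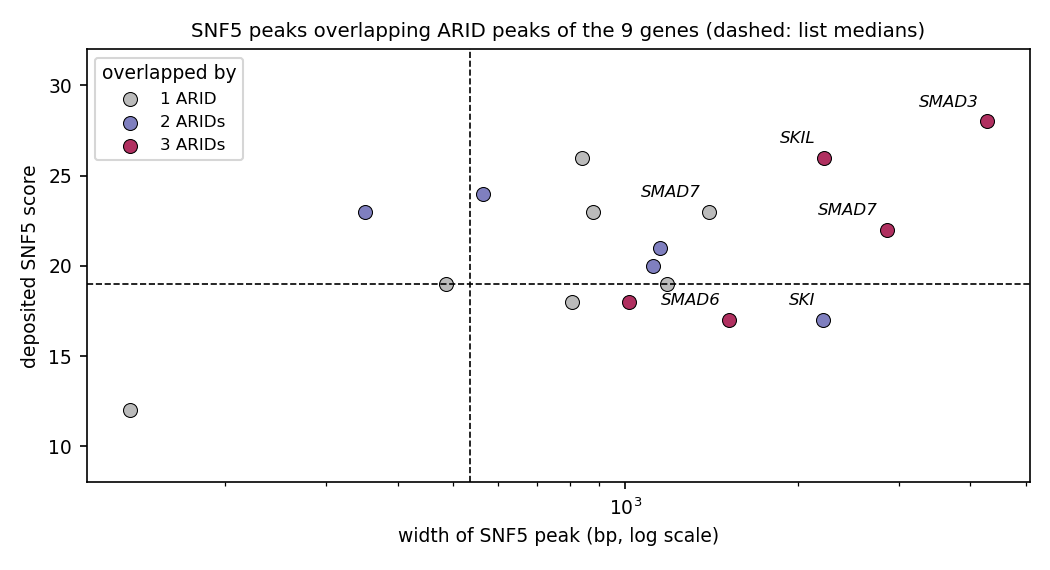
Width (x axis, bp, log scale) and deposited score (y axis) of the 17 SNF5 peaks that overlap ARID peaks of the 9 genes, coloured by the number of ARIDs, with dashed lines at the list medians of 535 bp and 19; the 6 widest are named. The SNF5 peak at SMAD3 is the widest, at 4280 bp.

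The pattern of SMAD7, the gene with the most peaks, was compared with 12427 other gene names by 6 counts, promoter and other peaks of each ARID. The nearest were GSE1, at a city-block distance of 3, and ARID3A and HHEX, at 4 each. GSE1 had 5 promoter and 2 other ARID1A peaks, against 6 and 2 at SMAD7, and 1 ARID2 peak outside promoters, against 3 at SMAD7. The promoter peaks of ARID1B and of ARID2 numbered 2 each at both genes.

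Of 63 other genes of the TGF-beta and BMP pathways, 34 had an ARID1A peak (54.0%), 23 an ARID1B peak (36.5%) and 31 an ARID2 peak (49.2%), against 33.3%, 17.1% and 29.7% of protein-coding genes. Peaks of all 3 ARIDs were assigned to 19 (30.2%, against 10.1% of protein-coding genes). Any ARID peak was assigned to 39 (61.9%, against 43.7%), and 24 had none. The list of 63 was also drawn up with earlier results of these data known. The role groups below were small, and differences between them were not tested. Of the other ligands 4 of 12 had any peak (33.3%), among them GDF15, a stress-induced ligand of the family, with 19 peaks, and BMP4 with 10. TGFB2 and TGFB3 had none. Of the type I receptors 4 of 7 had a peak (57.1%), led by BMPR1A with 6 and ACVR1B with 4. TGFBR1, the partner of TGFBR2, had none. All 3 other type II receptors had peaks, BMPR2 with 8 and ACVR2A with 3.

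Of 13 transcriptional targets of the pathway, 8 had any peak (61.5%, against 43.7% of protein-coding genes). These 8 had peaks of all 3 ARIDs, as did 23.0% of the protein-coding genes with any peak. CDKN1A, the cell cycle inhibitor p21, had 15 peaks and CTGF, a matrix-associated growth factor, 10, all 10 overlapped by SNF5. The targets without peaks were HAMP, PMEPA1, CDKN2B, SNAI2 and COL1A1. SMAD anchors, phosphatases and ubiquitin ligases had a peak in 7 of 8 (87.5%), with 9 at SMURF2, which ubiquitinates receptors and SMADs, and 7 at NEDD4L. Latency and extracellular control genes had ARID1A peaks in 6 of 8 and ARID2 peaks in 1 of 8, FST, which had 8 peaks in all, while LTBP3 had 5, all of ARID1A. Among cofactors and corepressors 4 of 6 had a peak (66.7%), with 12 at TGIF1, all overlapped by SNF5, and 3 at EP300, of which 0 were. Of the co-receptors TGFBR3 had 8 peaks and ENG none, and the decoy receptor BAMBI had 2. Of the other SMADs SMAD5 had 3 while SMAD1 and SMAD9 had none.

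**Figure D5:**
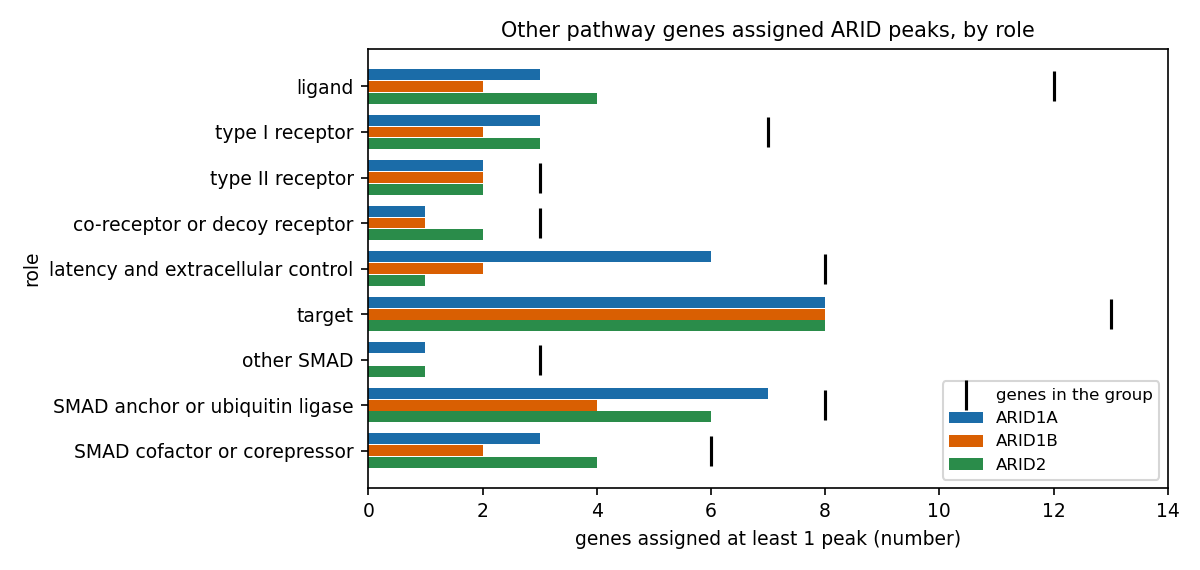
Number of genes (x axis) assigned at least 1 peak of ARID1A, ARID1B or ARID2 in each role group (y axis) of the 63 other pathway genes; black ticks give the genes in the group. Targets had 8 of 13 genes in each list, and latency and extracellular control genes 6 of 8 for ARID1A and 1 of 8 for ARID2. Of protein-coding genes, 33.3% had an ARID1A peak, 17.1% an ARID1B peak and 29.7% an ARID2 peak.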

How the data were processed

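Chromatin of HepG2 cells was sequenced after immunoprecipitation of ARID1A, ARID1B, ARID2 or SNF5 (2 libraries each, grouped by the antibody in the title) and from 1 input library, which was not used here. Per the study's methods, the authors aligned reads to hg19 with Bowtie2, removed duplicates, merged replicates, called broad peaks with MACS2, joined close peaks, removed blacklisted regions and assigned each ARID peak to its nearest gene with Gencode. Whether the input was the control in peak calling is not given in the sources used here. The deposited ARID lists give positions, a feature class, a nearest gene, a distance in bp and a single or multiple label, and the deposited SNF5 list gives a score made by the authors' peak caller. The lists carry no counts, so depth is unknown. The number of columns of other samples was 0.

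The 9 genes and all lists were chosen with earlier results of these data known. Overlap meant at least 1 bp. Gene positions came from Gencode v44 lifted to GRCh37, the assembly of hg19 (0 peaks ran past a chromosome end). Deposited distances depend on the release of the annotation: 96.1%, 95.8% and 95.1% of ARID1A, ARID1B and ARID2 peaks kept their promoter or other class under a distance of 1000 bp in v44. Of 12428 gene names, 9314 were in v44 and 704 were matched through RefSeq synonyms. Named were all 9 genes, up to 2 of the other pathway genes per role by their peaks, and the 3 gene names most like the gene with most peaks; further pathway genes were named after their values were seen. Canonical starts are those of the Ensembl canonical transcript. Sequence was read with samtools 1.23.1. Computation used Python 3.11.15, pandas 2.3.3, numpy 2.4.6 and scipy 1.17.1, and the interval functions were checked on simulated data. No test was run, since each subunit has 1 list. The deposited chromatin state was not used, for the reason given under other observations. Besides the markers named in the report, 1 hepatocyte marker gene is not reported here.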

Additional observations from a re-analysis of the deposited data

How the results depend on the processing

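Of 55 alternative values over 17 counts, 39 stayed within 1.5 times the count reported. Overlap depended most on its definition. With a reciprocal overlap of 50%, another ARID overlapped 4 ARID1A, 3 ARID1B and 3 ARID2 peaks, and SNF5 overlapped 1, 0 and 1. The SNF5 peaks at the genes had a median width of 1118 bp, against 194.5, 121 and 213 bp for the ARID peaks in that order. Peaks of such unlike width seldom reach a reciprocal overlap of 50%. With a gap of up to 1000 bp another ARID was near 28 ARID1A peaks, and with midpoints up to 500 bp apart near 21. SNF5 midpoints were within 500 bp of 15 ARID1A peaks. Shares of the whole lists under these other definitions are not given, so these counts do not compare the 9 genes with the lists. Joining peaks up to 1000 bp apart left 17 ARID1A regions, and the widest 50% of each list held 13 ARID1A, 5 ARID1B and 14 ARID2 peaks of the 9 genes. Distance limits of 500 and 5000 bp gave 9 and 24 ARID2 promoter peaks. Peaks up to 1000 bp apart placed all 3 ARIDs in 1 region at 5 genes, SKIL and SMAD6 in addition to the 3 reported. The assignment to TGFBR2 rests on distal peaks for ARID1B: within 5000 bp of the gene bodies, 4 genes had peaks of all 3 ARIDs. No paired analysis was possible because the lists hold merged replicates, and for the same reason no replicate could be left out. Depth limits could not be given without read counts.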

Other observations

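The deposited chromatin state often differed between lists at shared positions. Overlapping ARID1A and ARID2 peaks carried the same state in 2890 of 5618 pairs (51.4%), against 43.8% from the product of the state shares. For ARID1A and ARID1B the values were 1235 of 2880 pairs (42.9%) against 30.9%, and for ARID1B and ARID2 942 of 2458 (38.3%) against 31.3%. At the 9 genes 10 of 18 overlapping pairs had the same state. The cause was not tested.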
